A study of Mus musculus with 6 samples.

Results

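miR-128-3p, miR-7a-5p, miR-9-5p and miR-124-3p are microRNAs (miRNAs) that are enriched in neurons. They were taken by name from a table of 1927 rows of mature miRNAs, and each of the 4 names had a row of its own. The table came from small RNA sequencing of extracellular vesicles, the membrane-bound particles that cells shed, collected from crushed tibias and femurs, cleared of marrow by a brief spin, of untreated male mice of the Swiss-CD1 strain at the age of 8 weeks. Large vesicles (lEVs, 3 libraries) were pelleted at 10000 g, and small vesicles (sEVs, 3 libraries) were collected from that supernatant at 100000 g on a 30% sucrose cushion. Strain, sex, age, tissue and the absence of treatment were the same in both groups. Vesicle size and the way of collection differ together between them and cannot be told apart. The labels give neither the cells that released the vesicles nor whether replicates came from separate mice, so every p-value reflects the variation among these libraries alone, which may be technical.

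A miRNA guides an Argonaute protein to messenger RNAs, mainly through its seed, the bases from the second to the eighth. In the nervous system, miR-124 and miR-9 are hallmarks of neurons and neural progenitors, miR-128 dampens the excitability of neurons, and miR-7 is bound by the circular RNA Cdr1as. They are not confined to neurons: miR-7 is also abundant in endocrine cells such as those of the pancreatic islets, and miR-128 is made in several other tissues.

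The mature sequences of the 3 members with any counts are shown with the seed in capitals (RefSeq, GRCm38.p6), together with miR-7b-5p, which shares the seed of miR-7a-5p.
miR-128-3p: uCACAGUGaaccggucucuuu
miR-7a-5p: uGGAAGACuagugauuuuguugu
miR-9-5p: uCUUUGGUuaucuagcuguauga
miR-7b-5p: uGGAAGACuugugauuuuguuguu
Among the mature miRNAs of the RefSeq table used, which held no sequence of miR-124-3p, no other had the full seed of miR-128-3p or of miR-9-5p. miR-7b-5p was the 1 other with the seed of miR-7a-5p. Over the bases they share, counted from 1 at the 5′ end, miR-7a-5p and miR-7b-5p differ by A10U, with the base of miR-7a-5p written first.

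miR-128-3p is cut from 2 hairpins, shown with the mature 3p arm in capitals because the arm is identical in both and its counts cannot be divided between them.
Mir128-1: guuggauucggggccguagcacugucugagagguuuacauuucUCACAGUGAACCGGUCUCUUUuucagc
Mir128-2: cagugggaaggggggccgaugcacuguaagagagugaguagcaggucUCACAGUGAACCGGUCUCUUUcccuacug
Mir128-1 lies at chr1:128202361-128202430 (plus strand) in an intron of R3hdm1, and Mir128-2 at chr9:112118636-112118711 (minus strand) in an intron of Arpp21, each on the strand of its host gene. miR-7a-5p also comes from 2 hairpins. Mir7-1 lies at chr13:58392779-58392886 (minus strand) in an intron of Hnrnpk on the same strand, and Mir7-2 at chr7:78888277-78888373 (plus strand) outside annotated genes. The 3 hairpins of miR-9-5p overlap noncoding genes on their own strand: Mir9-1 at chr3:88215598-88215686 in an intron of Gm3764, Mir9-2 at chr13:83738814-83738885 in an exon of C130071C03Rik, and Mir9-3 at chr7:79505264-79505353 in an intron of Mir9-3hg. Positions are those of GRCm38.

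The libraries held between 47441 and 114331 counts, the fewest in lEVs replicate 1. That library stood apart: chi-square tests of counts gave a statistic over its degrees of freedom of 25.2 and 19.8 against the other lEVs libraries, and 2.40 between those. Between the sEVs libraries the statistic lay in between, at 4.98, 7.39 and 3.09. Of the 1927 rows, 145 passed the filter on low counts. All 5 miRNAs listed as mesenchymal markers (miR-199a-3p in a joined row, miR-199a-5p, miR-214-3p, miR-145a-5p and miR-143-3p) were above 0 in all 6 libraries. Together they took between 11.2% and 13.8% of a library. Most of those counts were of the joined row of miR-199a-3p and of miR-143-3p. In single libraries miR-214-3p had 6 to 35 counts and miR-145a-5p 18 to 77. These markers do not show which cells released the vesicles.

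The neuron-enriched miRNAs fell into 2 that were measured in every library, 1 at the edge of detection and 1 that was listed at 0. miR-128-3p had 45, 114 and 106 counts in lEVs replicates 1, 2 and 3, and 33, 43 and 57 counts in sEVs replicates 1, 2 and 3. miR-7a-5p reached 17, 55 and 61 counts in the lEVs replicates against 22, 40 and 52 in the sEVs replicates. For miR-9-5p the lEVs replicates had 0, 4 and 4 counts and the sEVs replicates 2, 5 and 3. miR-124-3p, the most neuron-restricted of them, was listed at 0 in all 6 libraries. The 4 together took between 0.131% and 0.197% of the counts of a lEVs library and between 0.0755% and 0.0980% of a sEVs library.

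**Figure D1:**
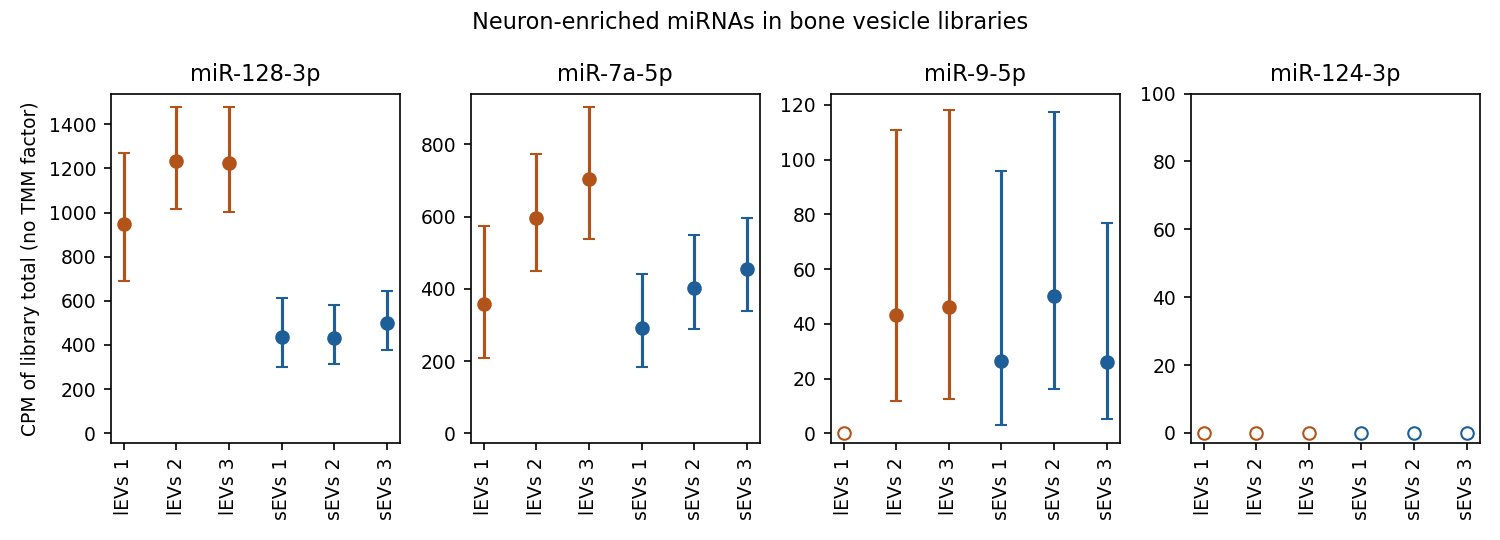
Share of each neuron-enriched miRNA in every library, in CPM of the library total (linear axes that differ between panels). Points are libraries (orange lEVs, blue sEVs), bars are exact 95% binomial intervals of the counts, and open circles are libraries listed at 0, drawn without an interval. The miR-128-3p points of lEVs lie between 949 and 1232, above the sEVs points at 433 to 499, whereas those of miR-7a-5p overlap.

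miR-128-3p was lower in small than in large vesicles in every pair of libraries. In CPM of the library total, that is counts scaled by library size alone, it stood at 949, 1232 and 1224 in lEVs replicates 1, 2 and 3 and at 437, 433 and 499 in the sEVs replicates. The lowest lEVs library was therefore above the highest sEVs library, and the exact 95% interval of the former (692 to 1269) did not overlap that of the latter (378 to 646). In CPM with TMM factors, which also adjust for differences in composition, its level was 1112, 1047 and 1095 CPM in lEVs and 455, 455 and 512 CPM in sEVs, a mean of 1084 ± 33.8 against 474 ± 32.8 CPM (SD, n = 3 each). The scaling moved lEVs replicate 1 from the lowest to the highest of its group, since that library had the smallest TMM factor, 0.853.

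Relative to lEVs, the level of miR-128-3p in sEVs fell by 1.18 on the log2 scale (SE 0.14, 95% interval -1.51 to -0.85; quasi-likelihood test in edgeR, adjusted p = 0.00101 by Benjamini-Hochberg). This is a 2.27-fold higher level in lEVs, with an interval of 1.81-fold to 2.85-fold. Across all 145 miRNAs tested, 17.2% were called at an adjusted p under 0.05 (12 higher in sEVs and 13 higher in lEVs). In the direction of miR-128-3p, 8.97% were called. The groups of 44.1% did not overlap in CPM with TMM factors, and the median log2 fold change over all 145 was -0.04. By size of fold, miR-128-3p was sixth of the 13 called higher in lEVs. With library totals in place of TMM the calls split into 11 higher in sEVs and 24 higher in lEVs, the median moved to -0.18 and the log2 fold change of miR-128-3p to -1.32.

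The spread of miR-128-3p between replicates depended on the scaling. Its coefficient of variation was 3.12% in lEVs and 6.91% in sEVs in CPM with TMM factors, and 14.2% and 8.05% in CPM of the library total, where counts of this size alone give 11.6% and 15.4%. The SDs in CPM with TMM factors thus lie below counting error, which 3 libraries can give by chance. Counting alone gives an SE of 0.153 for the log2 fold change, from 265 counts in lEVs and 133 in sEVs. The reported edgeR SE, 0.142, lay below that and may understate the error of this fold change. The SE was 0.235 in edgeR without the filter on low counts, and DESeq2 gave an SE of 0.30 (adjusted p = 0.00257). The binomial intervals of shares and the counting-only SE cover counting error only, as PCR copies are not independent molecules. The SEs of edgeR and DESeq2 draw on the spread between libraries, and where that spread is small the edgeR SE can fall below counting error.

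miR-7a-5p, in contrast, did not pass the test. In CPM of the library total it stood at 358, 595 and 704 in lEVs replicates 1, 2 and 3, and at 291, 403 and 455 in the sEVs replicates. lEVs replicate 1 lay below 2 of the 3 sEVs libraries, while lEVs replicates 2 and 3 lay above all of them. In CPM with TMM factors the means were 518 ± 106 in lEVs and 398 ± 84.5 in sEVs (SD, n = 3 each). The log2 fold change in sEVs was -0.39 (SE 0.23, 95% interval -0.93 to 0.14; edgeR adjusted p = 0.231), an interval that runs from 0.908-fold to 1.90-fold of the sEVs level in lEVs. Its coefficient of variation was 20.4% in lEVs and 21.2% in sEVs in CPM with TMM factors, and 32% and 21.8% in CPM of the library total, where counting alone gives 17.6% and 17.3%. Without lEVs replicate 1 the 95% interval was -0.96 to -0.02, and the adjusted p was 0.0993.

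**Figure D2:**
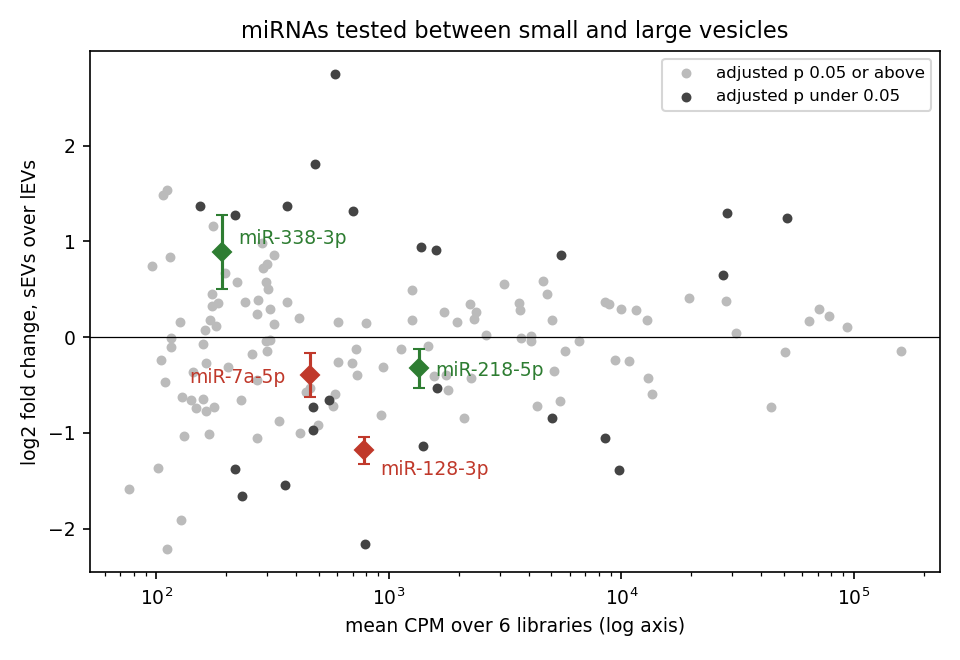
Log2 fold change of sEVs over lEVs against mean CPM (log axis) for the 145 miRNAs tested, with called miRNAs in dark grey. Red diamonds mark miR-128-3p and miR-7a-5p, green diamonds the other neuron or glia miRNAs tested, with bars of 1 SE. miR-128-3p sits at -1.18 among the called miRNAs and miR-7a-5p at -0.39 among those not called.

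The difference between the 2 measurable members was compared directly by their ratio within a library, which no scaling can move. miR-128-3p had 2.65, 2.07 and 1.74 counts per count of miR-7a-5p in lEVs replicates 1, 2 and 3, and 1.5, 1.08 and 1.10 in the sEVs replicates. miR-128-3p was thus above miR-7a-5p in 6 of 6 libraries, and each lEVs ratio was above each sEVs ratio. The log2 ratio, with 1 count added to each, was 1.06 ± 0.28 in lEVs and 0.27 ± 0.26 in sEVs (SD, n = 3 each), a difference of -0.79 (exact two-sided permutation p = 0.1, the smallest that 3 against 3 libraries allow). In each lEVs library the exact 95% intervals of the miRNAs' shares did not overlap, whereas in each sEVs library they did. Levels of different miRNAs are compared here by counts of mature forms of 21 and 23 bases, and ligation and amplification in library preparation can favour one sequence over another.

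Their places among all rows followed the same order. miR-128-3p ranked between 58 and 60 in the lEVs libraries and between 72 and 77 in the sEVs libraries. miR-7a-5p ranked 84, 79 and 72 in lEVs replicates 1, 2 and 3 and 94, 81 and 73 in the sEVs replicates. In sEVs replicate 3 the pair stood next to each other, at 72 and 73.

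miR-9-5p was too low to compare. Its 8 counts over the lEVs libraries and 10 over the sEVs libraries did not pass the filter, and its highest share was 50.3 CPM of the library total, in sEVs replicate 2 (exact 95% interval 16.3 to 117). In edgeR without the filter its log2 fold change was 0.24, with a 95% interval of -2.51 to 2.99 (adjusted p = 0.909). That interval spans large differences in either direction. For miR-124-3p there was no count in any library, and no fold was computed. Since the whole table held 77 values of 2 but 0 values of 1, single counts may have been written as 0, and a limit on the level of miR-124-3p was not calculated.

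The other arms of these hairpins and the near-identical miR-7b-5p added almost no counts. The passenger strand miR-128-1-5p had 5 counts in sEVs replicate 2 and was listed at 0 in the other libraries. miR-128-2-5p, miR-7a-1-3p, miR-7a-2-3p, miR-9-3p, miR-7b-5p, miR-7b-3p and miR-124-5p were listed at 0 in all 6 libraries. The arms specific to one hairpin of miR-128 were thus too few to say which hairpin the mature miR-128-3p came from.

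Other neural miRNAs were at 0 about as often as the rest of the table. Of 18 other neuron miRNAs, 15 (83.3%) were listed at 0 in all 6 libraries, as were 1600 of all 1927 rows (83.0%). The 15 included miR-9-3p, miR-129-5p, miR-132-3p, an activity-regulated miRNA, miR-137-3p, miR-153-3p and miR-383-5p. miR-138-5p, known in dendritic spines, had 3 counts in sEVs replicate 3 alone, and miR-326-3p had 3 or 4 counts in 3 libraries. Of the 4 glia miRNAs, miR-219a-2-3p and miR-338-5p were listed at 0 throughout, and miR-219a-5p, which promotes oligodendrocyte maturation, had 3 and 2 counts in lEVs replicates 1 and 2. Together 17 of the 22 (77.3%) were at 0 throughout, a share near that of all rows, so the share alone is no result about neural miRNAs. By contrast, the 7 lists of other cells with counts, described below, held 0 miRNAs at 0 throughout, whereas the islet miRNA miR-375-3p was at 0. All lists were chosen with earlier results of these data known, so this contrast is a description.

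**Figure D3:**
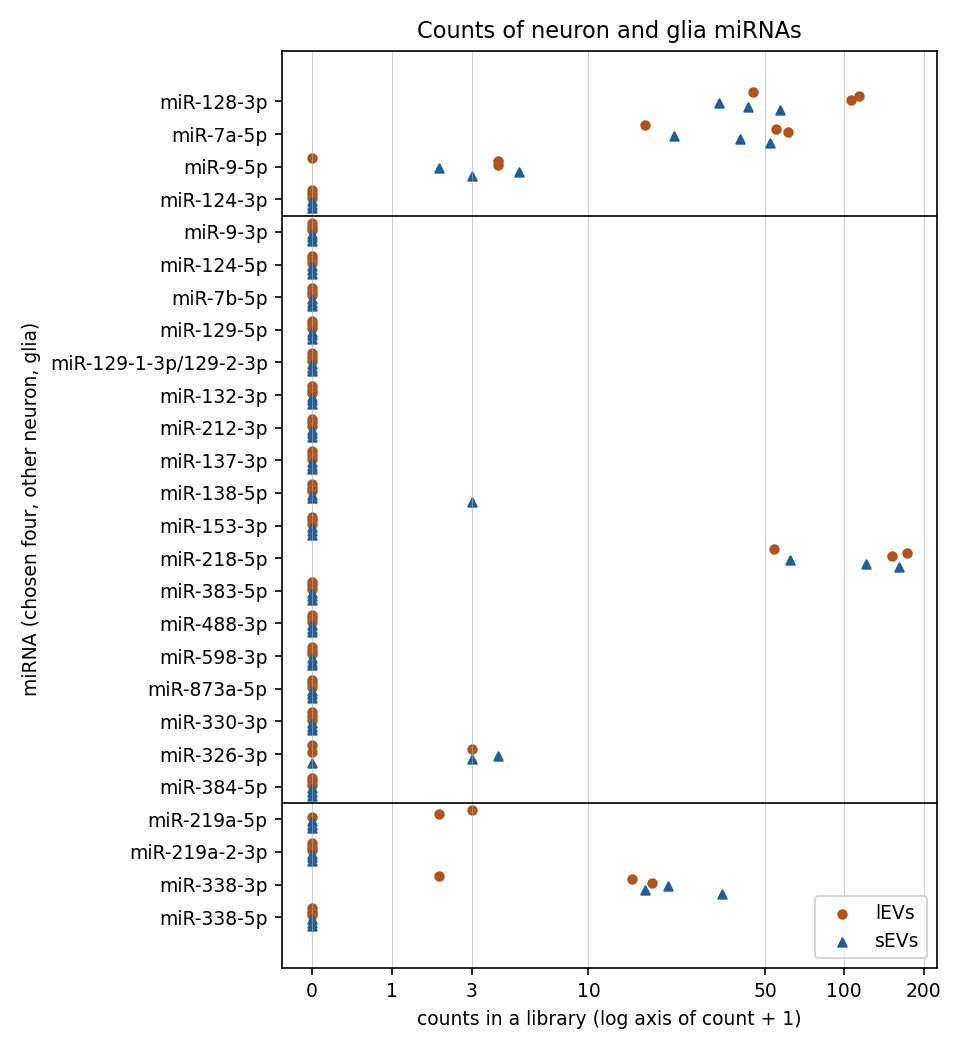
Counts per library (log axis of count + 1) of the chosen miRNAs (top block), the other neuron miRNAs (middle block) and the glia miRNAs (bottom block). Each symbol is a library (orange circles lEVs, blue triangles sEVs, shifted vertically to be seen). Of the 22 miRNAs in the lower blocks, 17 lie at 0 in every library, and miR-218-5p and miR-338-3p are the 2 above 0 in all 6.

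miR-218-5p and miR-338-3p, the other neural miRNAs with enough counts to test, did not pass. miR-218-5p, a motor neuron miRNA that is also known in osteoblasts, had 54, 173 and 152 counts in lEVs replicates 1, 2 and 3 and 62, 121 and 162 counts in the sEVs replicates. Its log2 fold change was -0.32 (SE 0.20, 95% interval -0.80 to 0.15; edgeR adjusted p = 0.267). miR-338-3p, an oligodendrocyte miRNA, had 2, 15 and 18 counts in lEVs and 21, 17 and 34 counts in sEVs, a log2 fold change of 0.89 (SE 0.39, 95% interval -0.02 to 1.80; edgeR adjusted p = 0.134). None of the 22 other neuron and glia miRNAs was called, and DESeq2 and limma voom also called 0. In the reported edgeR fit, 0 of the 2 tested had an unadjusted p under 0.05. That depended on the setting: the unadjusted edgeR p of miR-338-3p was 0.0297 without the filter on low counts. For miR-218-5p it was 0.0437 without lEVs replicate 1. Over all 145 tested, 17.2% were called and 37.9% had an unadjusted p under 0.05, so 0 of 2 is no result about these miRNAs. The medians of the log2 fold changes were -0.79 over the 2 tested members and 0.28 over these 2 others, beside -0.04 over all 145.

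Among markers of other cells, the summed shares of the library total did not overlap between the fractions for 3 of the 7 lists with counts (42.9%). Of single miRNAs tested, 44.1% did not overlap, but in CPM with TMM factors, so the percentages rest on different scalings. The 2 cartilage miRNAs, both arms of miR-140, took between 1.41% and 2.03% of the lEVs libraries and between 1.09% and 1.18% of the sEVs libraries. The 2 lymphoid miRNAs took between 0.0949% and 0.164% of the lEVs libraries and between 0.191% and 0.223% of the sEVs libraries, and the 2 endothelial miRNAs between 6.52% and 7.80% and between 8.24% and 8.60%. The lymphoid share was carried by miR-150-5p, whose log2 fold change was 0.91 (adjusted p = 0.00268 in edgeR), while that of miR-155-5p was -0.62 (adjusted p = 0.341). None of the cartilage or endothelial miRNAs passed the test alone, with edgeR adjusted p between 0.119 and 0.253. The other lists overlapped between the fractions. In the lEVs and sEVs libraries respectively, the ranges were 0.525% to 0.740% and 0.428% to 0.558% for 3 red cell miRNAs, 4.08% to 5.60% and 4.34% to 4.80% for 3 myeloid miRNAs, and 1.78% to 2.58% and 1.67% to 2.00% for 3 skeletal muscle miRNAs. The defining miRNA of endocrine islets, miR-375-3p, was listed at 0 in all 6 libraries. The part of these cells in the levels of miR-128-3p and miR-7a-5p was not tested.

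The miRNAs whose levels across the 6 libraries were most like those of miR-128-3p were miR-378a-3p/378b/378c (1 joined row), miR-191-5p, miR-29a-3p, miR-15b-5p and miR-532-5p. Likeness was the root mean square difference of log2 CPM, each miRNA centred on its own mean over the 6 libraries, which ran from 0.14 for miR-378a-3p/378b/378c to 0.19 for miR-532-5p. miR-378a is encoded within Ppargc1b, and miR-29a-3p is a regulator of collagen messenger RNAs. Their log2 fold changes in sEVs lay between -1.55 for miR-15b-5p and -0.97 for miR-532-5p. For miR-7a-5p the nearest were miR-221-3p at 0.10, a regulator of the receptor Kit, and miR-218-5p at 0.12, followed by miR-142a-5p and miR-142a-3p, the arms of a blood cell hairpin, and miR-361-3p at 0.22. Their log2 fold changes lay between -0.77 for miR-361-3p and -0.14 for miR-142a-5p, and none passed the test, with edgeR adjusted p between 0.120 and 0.474. Since these lists were chosen for likeness over the same libraries, their directions are a description.

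**Figure D4:**
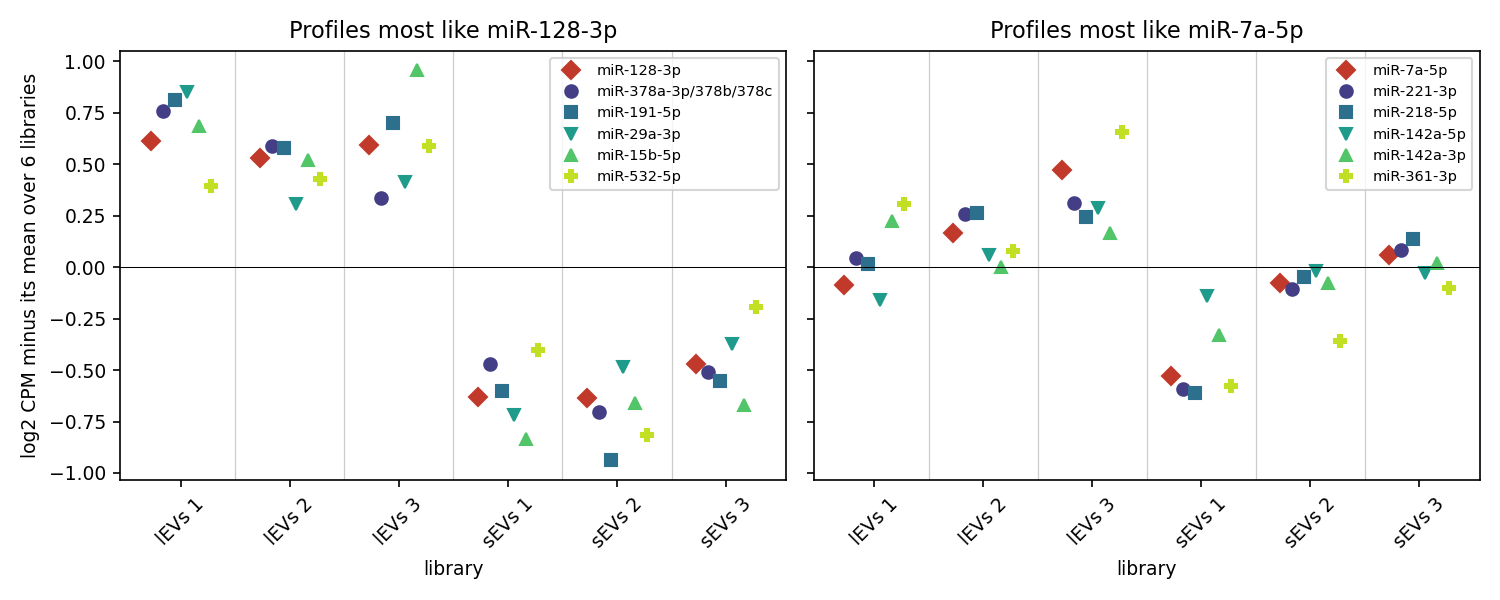
Log2 CPM minus its mean over 6 libraries, by library, for miR-128-3p (left) and miR-7a-5p (right), shown as red diamonds, and the 5 miRNAs nearest to each. The left set is above 0 in all 3 lEVs libraries and below 0 in all 3 sEVs libraries. On the right, miR-7a-5p is lowest in sEVs replicate 1, and its values in lEVs replicate 1 and sEVs replicates 2 and 3 lie close to 0.

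The fold change of miR-128-3p kept its call under all 13 other ways of processing that were run, from -1.32 to -1.12 on the log2 scale, with adjusted p between 8.39e-06 and 0.00822. That of miR-7a-5p was below 0 under all 13, from -0.58 to -0.21, and passed in 0 of them, with adjusted p between 0.0993 and 0.659. Over all miRNAs tested, the share called was 15.9% with DESeq2 size factors, 24.1% with library totals, 11.8% in DESeq2, 20% in limma voom, 16.2% without the filter on low counts, 17.9% with the replicate number as a block and 17.2% where the filter was a mean of 100 CPM or more. It was 34.4%, 14.9% and 10.5% without lEVs replicate 1, 2 and 3 in turn, and 15.7%, 14.4% and 16.2% without sEVs replicate 1, 2 and 3. miR-128-3p was thus called both where few and where many miRNAs were.

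**Figure D5:**
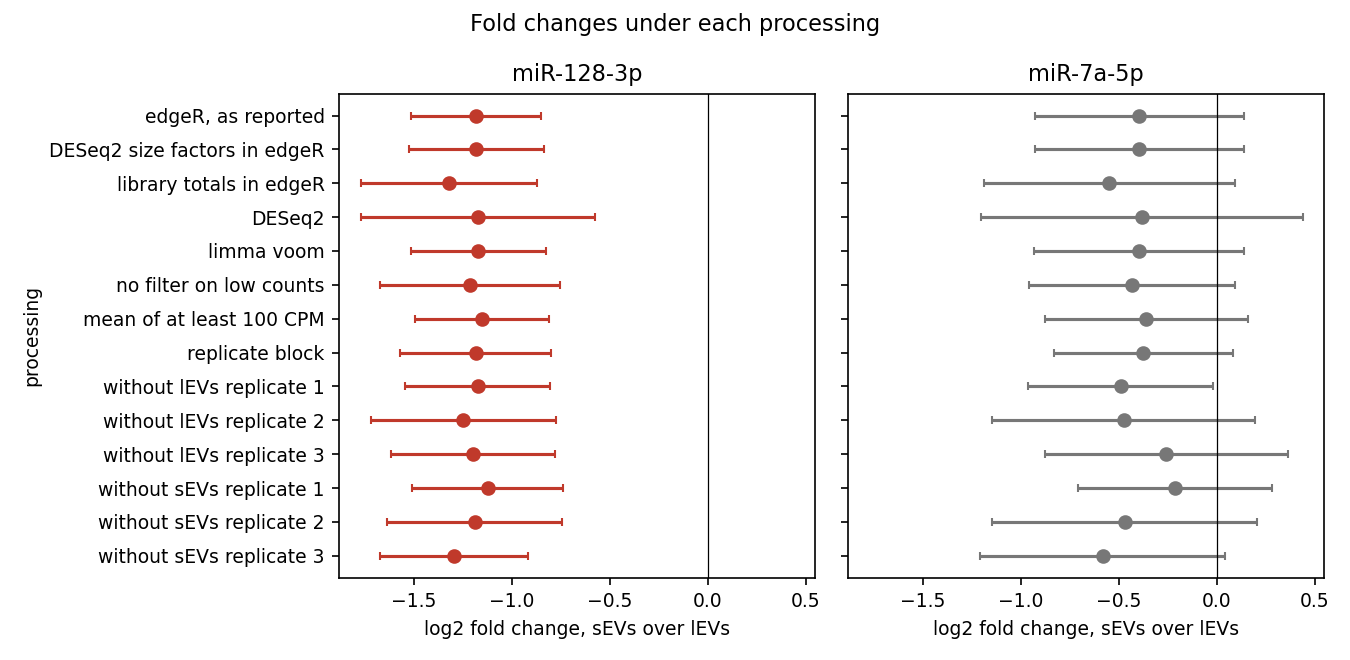
Log2 fold change of sEVs over lEVs with 95% interval for miR-128-3p (left) and miR-7a-5p (right), for edgeR as reported and 13 other ways of processing. Red marks an adjusted p under 0.05 and grey any other. All 14 values of miR-128-3p are red, and all 14 of miR-7a-5p are grey and below 0.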

How the data were processed

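The values deposited by the authors are raw counts, whole numbers for each mature miRNA in each library. The submitters' processing notes name GRCm38, R 4.2.2 and DESeq2 1.38.2. Not given in the sources used here are the aligner, the use of strand and the kind of count (reads or molecular identifiers). Libraries were grouped by their titles. The test was edgeR's quasi-likelihood test (edgeR 4.0.16, R 4.3.3) with TMM factors. filterByExpr kept its defaults, a minimum count of 10 and a minimum total of 15. P-values of the 145 tested miRNAs were adjusted together (Benjamini-Hochberg), with calls at 0.05. The code was run on simulated counts in which libraries of a group shared the same composition apart from random spread. That checks the code and not the error rates in these data. SEs are the absolute log2 fold change over the square root of F. Profiles used log2 CPM with a prior count of 2. Shares have exact Clopper-Pearson intervals. Joined rows, 35 in the table, counted as each miRNA they name. Hairpin positions are from GENCODE M21 and sequences from RefSeq. Named were the members, the other arms and seed sharers, the tested neuron and glia miRNAs, and the 5 nearest profiles of each tested member. Members and lists were chosen with earlier results of these data known. Alternatives were DESeq2 1.42.0, voom in limma 3.58.1, other scalings and filters, a replicate block and each library left out.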

Additional observations from a re-analysis of the deposited data

How the results depend on the processing

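The number of miRNAs called, 25, rose to 53 without the filter on low counts (327 tested, 16.2% called). With 1 library left out it lay between 16 (without lEVs replicate 3, 10.5% called) and 52 (without lEVs replicate 1, 34.4% called). The cause was not tested. miR-128-3p was called in each of these fits, and miR-7a-5p was not called under any of the 13 alternatives. Of the 22 other neuron and glia miRNAs none was called, but only 2 were tested in most fits, 4 in DESeq2 and 5 without the filter. The 17 at 0 in every library could not be called. The difference in the log2 ratio of miR-128-3p to miR-7a-5p stayed below 0, from -0.94 to -0.65 with 1 library left out, where the smallest exact p is 0.2, and was -0.74 with 5 counts added in place of 1. Same-numbered libraries of the 2 fractions deviated from their group means with correlations of -0.04, 0.02 and 0.35 across miRNAs. Libraries of different numbers had correlations between -0.30 and 0.15. With 3 libraries in a group this cannot decide whether the numbers mark pairs, and the reported fit did not pair them. With the replicate number as a block, 26 miRNAs were called, and the log2 fold changes were -1.19 for miR-128-3p (edgeR adjusted p = 0.00361) and -0.37 for miR-7a-5p (0.186). The other miRNAs rest on too few counts: no alternative was informative for miR-9-5p, and none gave a value for miR-124-3p.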

Other observations

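Bases 2 to 7 of miR-128-3p, CACAGU, are bases 3 to 8 of miR-27a-3p and miR-27b-3p, whose seeds are therefore shifted by 1 base. The joined row miR-27a-3p/27b-3p, named after its values were seen, stood at 10007, 6243 and 7312 CPM in lEVs replicates 1, 2 and 3 and at 9177, 9916 and 10657 CPM in the sEVs replicates. Its log2 fold change in sEVs was 0.34 (SE 0.19, 95% interval -0.09 to 0.78; edgeR adjusted p = 0.196), and its groups overlapped through lEVs replicate 1. The difference between its fold change and that of miR-128-3p was not tested.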
